A study of Sus scrofa with 24 samples.

Results

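Solute carriers are membrane proteins that move small molecules such as sugars, amino acids, bile acids, metals and nucleotides across the cell surface or into organelles. In the liver they take up nutrients and bile acids from the portal and umbilical blood, release glucose, and connect the cytosol with the mitochondria. The fetal liver is also a site of blood formation, so liver tissue before birth holds developing red cells, which import large amounts of iron and build heme, beside hepatocytes, which make plasma proteins.

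The genes described here are the solute carrier genes that were expressed in the livers of 24 fetal pigs, collected 63 days post conception (dpc). A gene was included when its symbol in the array annotation begins with SLC, a family number, the letter A and a member number, and when its probe set with the highest mean reached a log2 level of 6 in no fewer than 18 arrays out of 24. SLC2A1, SLC3A2, SLC4A1, SLC7A11, SLC25A15, SLC39A14 and SLC40A1 were left out by name, 5 of which passed the limit. The annotation holds 270 such symbols, and 69 genes were included. The remaining 194 symbols lay below the limit, 166 of them in every liver. By the same limit, 3379 of all 13755 genes with a symbol were expressed.

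The fetuses belonged to an F2 population of the breeds DL (German Landrace) and Pi (Pietrain), were bled out when collected, and were measured with 1 Affymetrix Snowball array per liver. The study was designed to compare fetuses with intrauterine growth restriction with littermates of appropriate weight, but the labels give only a fetus number for each array, so growth groups, sexes and litters are not compared here. Values are given as the lowest, median and highest of the 24 livers on the deposited log2 scale, on which 1 unit is a 2-fold difference. The fetuses include siblings, and the p-values below treat them as independent, so they are approximate.

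The levels themselves chose the genes and are a description. Levels of different probe sets do not give the relative abundance of their transcripts, so the order of levels is an order of signals only. Fetuses 311 and 312 stood farthest from the other livers on the first principal component of the expressed genes, which held 22.5% of the variance. Results on the cell-type scores that rest on them are given with and without them. The array carries 69 probe sets as background controls, and their 95th percentile lay at 6.52 to 6.89 depending on the array. The medians of 43 of the 69 solute carriers lay above 6.89, and 30 of them did so even in their lowest liver. Signals of the other genes overlap with those of the brighter controls. The symbol SLC9A3R1 matches the rule by its letters, but this gene encodes a scaffold protein that binds transporters. SLC25A17 belongs to the mitochondrial carrier family but is known from the peroxisome.

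Median levels of the 69 genes ran from 6.20 to 10.42, with a median of 7.20, against 7.06 for all expressed genes. A median of 8 or more was reached by 15 of them, which is 21.7%, against 22.3% of all expressed genes, and 28 lay below 7. In 58 genes every liver reached the limit, and in 11 the lowest liver fell short of it. The plot of levels by transport class shows every liver.

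**Figure D1:**
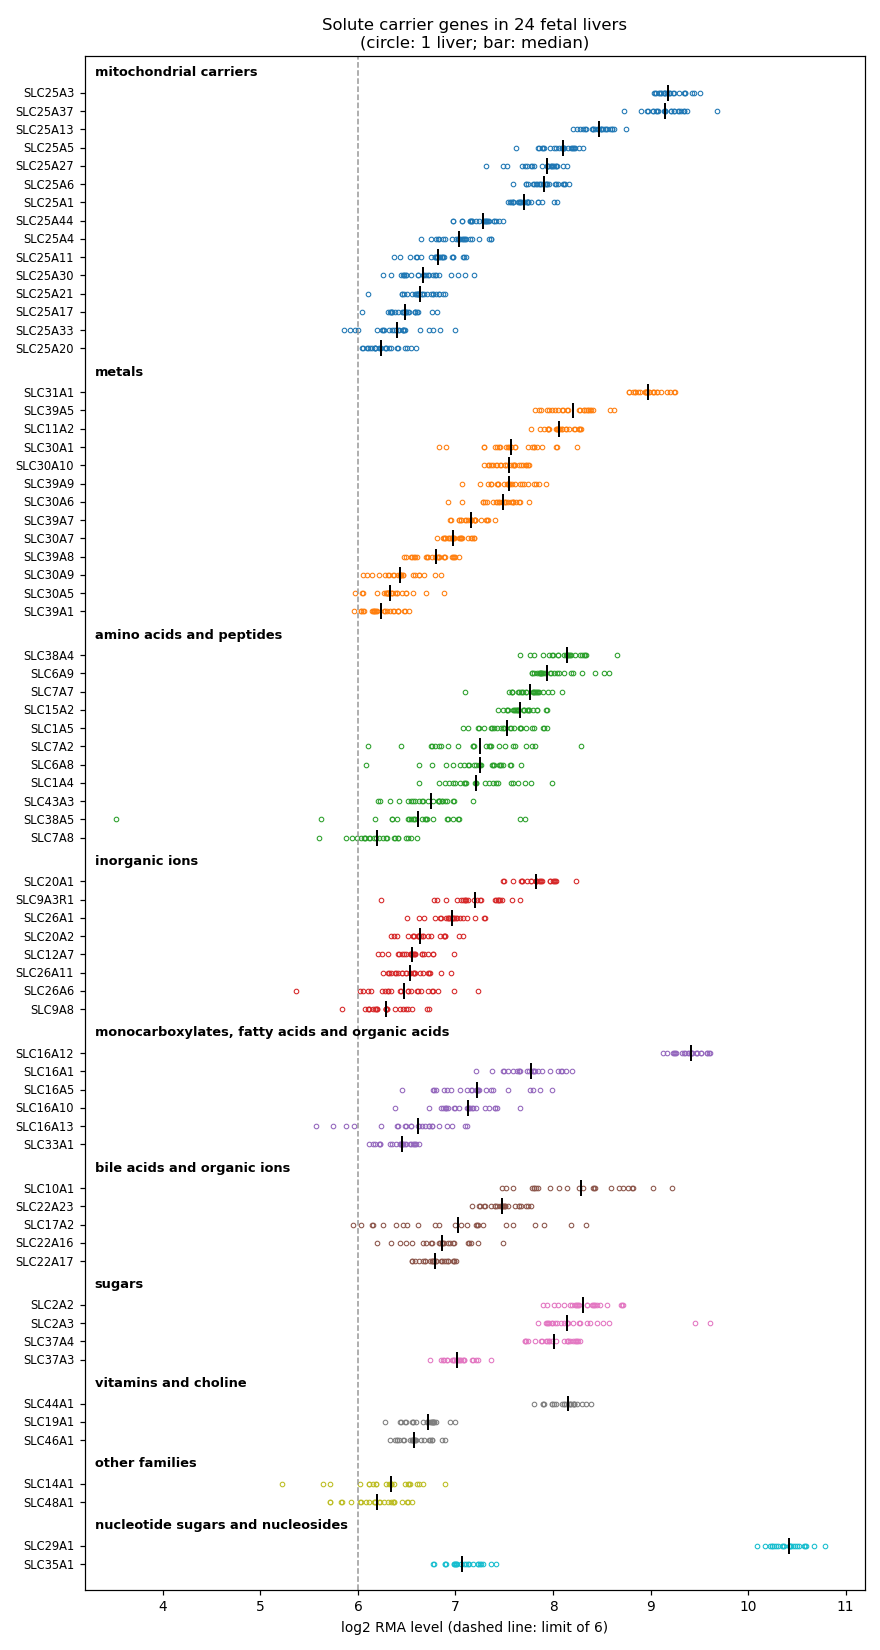
Log2 RMA levels (x axis) of the 69 expressed solute carrier genes (rows, grouped by transport class and ordered by median), with a circle for each of the 24 livers, a bar for the median and a dashed line at the limit of 6. SLC29A1 has the highest median, 10.42, and SLC38A5 the most distant single liver, at 3.52.

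The share of expressed genes is given by transport class, as a description. Classes follow the family number, so a class can hold genes with another role, such as SLC9A3R1 in the inorganic ion class. With the 7 genes left out by name set aside, metal transporters had 13 of 29 symbols among the expressed genes (44.8%), and the mitochondrial carriers had 15 of 34 (44.1%). Amino acid and peptide transporters had 11 of 51, inorganic ion transporters 8 of 46, and sugar transporters 4 of 31. Carriers of monocarboxylates, fatty acids and organic acids had 6 of 22, those of bile acids and organic ions 5 of 27, and those of vitamins and choline 3 of 10. Of the 10 symbols for nucleotide sugar and nucleoside transporters 2 were expressed, and SLC14A1 and SLC48A1 came from other families. Of single families, family 16 had 5 of 13 symbols expressed and family 30 had 6 of 10. Both phosphate transporters of family 20 were expressed. Families 4, 5, 12 and 35 had 8, 11, 7 and 4 symbols, of which 0, 0, 1 and 1 were expressed.

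Among the mitochondrial carriers, SLC25A3, which brings phosphate into the matrix for ATP synthesis, had the highest median. Its levels ran from 9.04 in fetus 363 over a median of 9.18 to 9.51 in fetus 303, a span of 1.39-fold. SLC25A37, known as mitoferrin 1, which imports iron into the mitochondria of developing red cells, ran from 8.73 in fetus 312 over 9.15 to 9.68 in fetus 274. SLC25A13, the aspartate and glutamate exchanger citrin of the urea cycle and the malate shuttle, had levels of 8.21 to 8.75 around a median of 8.47. The 3 ADP/ATP carriers were all expressed: SLC25A5 had a median of 8.10, SLC25A6 of 7.91 and SLC25A4 of 7.04, with spans of 1.61-fold, 1.48-fold and 1.64-fold. SLC25A5 was lowest in fetus 352, SLC25A6 in fetus 340 and SLC25A4 in fetus 311, so no liver was lowest for more than 1 of them. SLC25A1, the citrate exporter, lay between 7.54 and 8.04, and SLC25A11, the oxoglutarate and malate exchanger, between 6.37 and 7.11. SLC25A20, which carries acylcarnitines to fatty acid oxidation, was near the limit, with 6.04 to 6.60 around a median of 6.24. SLC25A33, a carrier of pyrimidine nucleotides, had the widest span of the class, 2.2-fold, with its lowest level, 5.86, in fetus 327, its median at 6.40 and its highest level in fetus 311. The carriers not described further, such as SLC25A27 and the branched-chain amino acid carrier SLC25A44, had medians of 6.48 to 7.94. The class as a whole had a median span of 1.64-fold, and SLC25A33 alone passed 2-fold.

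The metal transporters were among the steadier genes, with a median span of 1.49-fold. SLC31A1, the copper importer of the cell surface, had the highest median of the class, with 8.78 in its lowest liver, a median of 8.97 and 9.25 in its highest. SLC39A5, a zinc importer, followed with 7.82 to 8.63 around 8.21. SLC11A2, which carries ferrous iron into cells and out of endosomes, ran from 7.77 in fetus 355 over 8.06 to 8.29 in fetus 329. SLC30A1, the zinc exporter of the cell surface, was the 1 metal transporter with a span over 2-fold. It ran from 6.83 in fetus 311 over 7.57 to 8.25 in fetus 340, with 6.90 in fetus 312 as its second lowest level. SLC39A8, an importer of zinc and manganese, had levels of 6.47 to 7.04. SLC30A7, which loads zinc into the Golgi, had the narrowest span of all 69 genes, 1.29-fold, from 6.81 to 7.19. Levels of SLC39A1, another zinc importer, lay between 5.96 and 6.52, close to the limit. The remaining zinc transporters SLC30A5, SLC30A6, SLC30A9, SLC39A7 and SLC39A9 and the manganese exporter SLC30A10 had medians of 6.33 to 7.55 and spans of 1.38-fold to 1.87-fold.

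The amino acid transporters varied more, with a median span of 2-fold, and 6 of the 11 had a span over 2-fold. SLC38A4, a sodium-coupled importer of neutral amino acids typical of liver, had the highest median of the class, with 7.66 in fetus 320, a median of 8.14 and 8.66 in fetus 313. The glycine transporter SLC6A9, which serves red cell precursors as well as the nervous system, ran from 7.78 over 7.94 to 8.57 in fetus 320. SLC1A5, which exchanges glutamine and other neutral amino acids, ran from 7.08 in fetus 355 over 7.53 to 7.94 in fetus 274. SLC7A2, an importer of arginine and other cationic amino acids, spanned 4.56-fold, from 6.10 in fetus 320 over 7.25 to 8.29 in fetus 311. Without the highest and the lowest liver its span was 2.61-fold. SLC1A4, another exchanger of neutral amino acids, spanned 2.58-fold, with 6.63 in fetus 274, a median of 7.21 and 7.99 in fetus 376. SLC6A8, the creatine importer, ran from 6.08 in fetus 274 over 7.25 to 7.67 in fetus 352, a span of 3.0-fold that shrank to 1.92-fold between its second lowest and second highest liver.

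SLC38A5, an importer of glutamine and related amino acids, had the widest span of all, 18.3-fold, which rests on 1 liver. It had a level of 3.52 in fetus 352, 5.62 in fetus 311 as the second lowest, a median of 6.62 and 7.71 in fetus 281. Between the second lowest and the second highest liver the span was 4.12-fold. The gene has 3 further probe sets, with medians of 2.42, 1.67 and 2.99, none of which passed the limit. Their correlations with the one used were 0.027, 0.080 and -0.457, so no second measurement of this gene was at hand. SLC7A8, an exchanger of neutral amino acids, was among the members nearest to the limit, with a median of 6.20. SLC7A7, SLC15A2 and SLC43A3 had medians of 7.76, 7.66 and 6.75. SLC7A7 exports cationic amino acids, SLC15A2 imports short peptides, and SLC43A3 is placed here by its family number although it is known for the transport of purine bases.

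SLC2A2, the high-capacity glucose transporter of hepatocytes, ran from 7.90 in fetus 311 over a median of 8.31 to 8.72 in fetus 324, a span of 1.76-fold. SLC37A4 carries glucose 6-phosphate into the endoplasmic reticulum, where it is cleaved to glucose, and had levels of 7.71 in fetus 340, 8.01 at the median and 8.28 in fetus 303. SLC2A3, a high-affinity glucose transporter of neurons and blood cells, had a span of 3.38-fold. Its levels were 9.61 in fetus 311 and 9.46 in fetus 312, and the other 22 livers lay between 7.85 and 8.57. SLC37A3 completed the 4 sugar transporters with levels of 6.74 to 7.36.

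SLC10A1, the sodium-dependent bile acid importer of hepatocytes, had the highest median of the bile acid and organic ion class. Its levels ran from 7.48 in fetus 320 over 8.29 to 9.22 in fetus 338, a span of 3.35-fold, and 2.83-fold between its second lowest and second highest liver, so the span did not rest on single livers. SLC17A2, of the family of sodium phosphate and organic anion transporters, spanned 5.24-fold, from 5.95 in fetus 340 over 7.03 to 8.34 in fetus 281. Without its end livers the span was 4.42-fold, the widest of the 69 genes on that measure. SLC22A16, a carnitine transporter, ran from 6.20 in fetus 312 over 6.86 to 7.49 in fetus 363. SLC22A23 and SLC22A17 were steadier, with spans of 1.51-fold and 1.37-fold.

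SLC16A12, of the monocarboxylate transporter family and known in human as a creatine transporter, had levels of 9.13 to 9.61 around a median of 9.41. A second probe set of SLC16A12 passed the limit at a median of 9.43 and moved with the one used (r = 0.881, rho = 0.887 over the 24 livers). SLC16A1, the lactate and pyruvate transporter MCT1, ran from 7.21 in fetus 320 over 7.77 to 8.19 in fetus 360. Its family members SLC16A13 and SLC16A5 spanned 2.94-fold and 2.91-fold, with SLC16A13 between 5.57 in fetus 274 and 7.12 in fetus 352 and SLC16A5 between 6.45 in fetus 340 and 7.99 in fetus 312. SLC16A10, which carries aromatic amino acids, ran from 6.38 in fetus 312 over 7.13 to 7.66 in fetus 274. SLC33A1, which brings acetyl-CoA into the endoplasmic reticulum, spanned 1.43-fold around a median of 6.45.

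SLC20A1, a phosphate importer, had the highest median of the inorganic ion class, with 7.49 in fetus 376, a median of 7.83 and 8.24 in fetus 274. SLC26A6, an anion exchanger, had the widest span of that class, 3.65-fold, from 5.37 in fetus 274 over 6.47 to 7.23 in fetus 281. Its second lowest level was 6.02, and the inner span was 1.96-fold. The other ion transporters SLC20A2, SLC26A1, SLC26A11, SLC12A7 and SLC9A8 and the scaffold gene SLC9A3R1 had medians of 6.29 to 7.20, and of these SLC9A3R1 alone spanned over 2-fold, at 2.67-fold. Both SLC26A6 and SLC6A8 were lowest in fetus 274, by more than 0.5 below their second lowest livers. Fetus 274 was in total the lowest liver for 8 of the 69 genes and the highest for 9.

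SLC29A1, the nucleoside transporter of the cell surface, had the highest median of all 69 genes, with 10.09 in fetus 352, 10.42 at the median and 10.79 in fetus 281. SLC35A1, which brings CMP-sialic acid into the Golgi for the sialylation of glycoproteins, ran from 6.77 over 7.07 to 7.42. The choline transporter SLC44A1 ran from 7.80 over 8.15 to 8.39. The folate transporters SLC19A1 and SLC46A1 had medians of 6.72 and 6.57 and spans of 1.65-fold and 1.47-fold. SLC14A1, the urea transporter of red cells, ran from 5.22 in fetus 311 and 5.64 in fetus 312 over a median of 6.34 to 6.89 in fetus 327, a span of 3.19-fold. SLC48A1, which releases heme from lysosomes, had a median of 6.20.

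The genes just inside and just outside the limit are given as a description of that limit. Inside it, the 18th highest liver was at 6.03 for SLC48A1, 6.07 for SLC7A8 and 6.15 for SLC39A1. Outside it, that liver was at 5.99 for SLC25A10, the dicarboxylate carrier of mitochondria, 5.95 for SLC44A3 and 5.89 for SLC35A2, which carries UDP-galactose. A further 28 solute carriers in all, these 3 included, reached the limit in 1 to 17 livers.

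The span between the extreme livers had a median of 1.74-fold for the 69 genes, against 1.64-fold for all expressed genes. A span over 2-fold was found for 18 of the 69, or 26.1%, against 18.8% of the 3379 expressed genes, and a span over 3-fold for 7, or 10.1%, against 4%. A span over 4-fold was found for 3, SLC38A5, SLC17A2 and SLC7A2, or 4.35%, against 1.92% of all expressed genes. The plot of spans shows how far single livers set them.

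**Figure D2:**
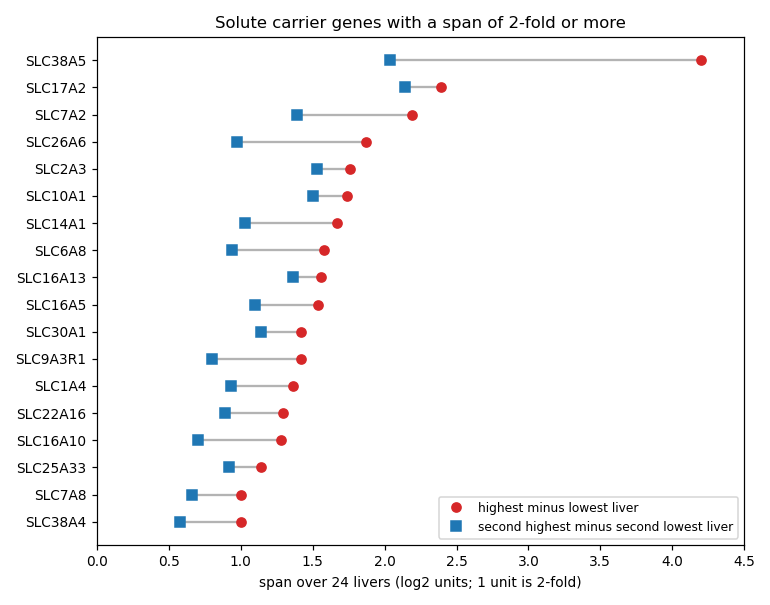
Span over the 24 livers in log2 units (x axis) for the 18 solute carrier genes (rows) with a span of 2-fold or more. Red circles give the highest minus the lowest liver, blue squares the second highest minus the second lowest. For SLC38A5 the full span is 4.20 and the inner span 2.04, for SLC26A6 they are 1.87 and 0.97, and for SLC17A2, with 2.39 and 2.14, they lie close together.

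Some livers held the extreme levels of many genes. Fetus 303 held the highest level of 12 genes and the lowest of 0, and fetus 281 the highest of 10 and the lowest of 0. Fetus 311 held the lowest level of 9 genes and the highest of 4, and fetus 320 the lowest of 8 and the highest of 3. In fetus 274, 8 genes lay more than 0.5 below their median and 3 more than 0.5 above it. In fetus 312 these numbers were 7 and 2, and in fetus 281 they were 0 and 6. The same counts over all expressed genes were not made, so they are not particular to solute carriers as far as was tested.

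For 51 of the 69 genes the array holds several probe sets, and for 14 of them at least 1 other probe set also passed the limit. The 15 other probe sets correlated with the one used at an r of 0.182 to 0.881 (median 0.706), and 8 of them at over 0.7. For SLC2A2 r was 0.858, for SLC30A1 0.776 and for SLC38A4 0.752. The lowest r was that of SLC39A9, a zinc transporter, at 0.182, so its values depend on the probe set.

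Liver tissue holds several cell types, and the next comparison asked which solute carriers varied over the livers together with the markers of a cell type. Each score is the mean, over the expressed marker genes of a cell type, of their levels in SD from the mean of the 24 livers. None of the marker symbols matches the naming rule of the solute carriers. The erythroid score used 23 genes, such as the hemoglobin genes HBB and HBZ and the heme synthesis genes ALAS2 and FECH, of 26 with a symbol, while HBE1, KLF1 and TRIM58 lay below the limit in every liver. Summed on the linear scale, the levels of its genes ran from 13.89 to 14.40 after taking log2. The hepatocyte score used 26 of 28 genes with a symbol, such as ALB, AFP and TTR, with AHSG and CP below the limit in every liver and a summed level of 16.24 to 16.56. The granulocyte score used 4 of 6, MPO, S100A8, S100A9 and S100A12, with LTF and CEBPE below the limit and a summed level of 9.28 to 12.61. The stellate score used 9 of 18 genes of collagen-making cells, with LUM, DES, PDGFRA, RGS5, MGP and COL6A3 below the limit and a summed level of 10.38 to 11.74. Of the markers of macrophages, endothelial cells and bile ducts with a symbol, 3 of 7, 6 of 8 and 0 of 5 passed the limit, and no score was made from them.

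In whole tissue, fewer cells of a type and less RNA per cell cannot be told apart. The erythroid score ran from -1.60 in fetus 312 to 1.37 in fetus 340, and fetuses 274, 320 and 340 stood apart from the other 21 livers at 1.27 to 1.37. The hepatocyte score ran from -0.93 in fetus 311 to 0.75 in fetus 281, and fetuses 311, 274, 312 and 320 stood apart from the other 20 at the low end. For these scores the slope over all livers is given with the correlation within the larger cluster alone. The granulocyte score was 2.97 in fetus 311 and 2.90 in fetus 312, with 0.77 as the next highest. The erythroid score correlated with the granulocyte score at an r of -0.515 and with the hepatocyte score at -0.050. The hepatocyte score correlated with the stellate score at 0.565 and with the granulocyte score at -0.452, so the scores are not independent of each other. Their r with the median background level of the arrays was -0.362 (erythroid), -0.410 (hepatocyte), 0.288 (granulocyte) and -0.240 (stellate), and with that level as a covariate 14, 6, 6 and 0 solute carriers passed, against 14, 6, 8 and 0 without it. Of these, 12, 5 and 6 were among the genes that passed without the covariate. SLC30A9 and SLC17A2 for the erythroid score, SLC25A17 for the hepatocyte score and SLC16A5 and SLC16A10 for the granulocyte score did not pass with it, at adjusted p by limma of 0.111, 0.0908, 0.057, 0.103 and 0.0582. The share of all genes that passed with the covariate was not counted.

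Of the 4 scores, the erythroid score had the highest number of solute carriers that passed the test. Among them were SLC25A37 and SLC11A2, which import iron. By limma with Benjamini-Hochberg adjustment over all expressed genes at a threshold of 0.05, 11 of the 69 rose with it (15.9%) and 3 fell (4.35%). Of all 3356 genes tested 9.24% rose and 2.29% fell with this score, or 11.5% in either direction, against 14 of the 69 solute carriers (20.3%). The median correlation with the score was -0.019 for the solute carriers and 0.031 for all genes tested.

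The smallest adjusted p was that of the mitochondrial iron importer SLC25A37. Its levels were 9.68, 9.31 and 9.37 in fetuses 274, 320 and 340, which had the highest erythroid scores, and 8.73 to 9.34 in the other 21 livers. The ranges overlap, with only fetuses 274 and 340 above all others. SLC25A37 rose by 0.23 ± 0.0305 (SE) log2 units per unit of the score (adjusted p = 1.4e-05). Within the 21 livers r was 0.889 (permutation p = 1.0e-05, the smallest that 100000 permutations give) and rho 0.810, and r was 0.807 without the 2 livers farthest out.

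The phosphate importer SLC20A1 rose by 0.21 ± 0.0299 per unit of the score (adjusted p = 2.9e-05), with an r of 0.853 and a rho of 0.830 within the 21 livers. Its levels were 8.24, 7.97 and 8.03 in fetuses 274, 320 and 340 and 7.49 to 8.02 in the others. The iron importer SLC11A2 rose by 0.15 ± 0.029 (adjusted p = 0.00074; r = 0.707, permutation p = 0.00033, rho = 0.762 within the 21). Its 3 livers with the highest scores lay at 8.27, 8.28 and 8.27, and the others between 7.77 and 8.29.

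Of the amino acid transporters, the glutamine exchanger SLC1A5 rose by 0.27 ± 0.0426 (adjusted p = 0.000136; r = 0.671, permutation p = 0.0007, rho = 0.639 within the 21 livers). It was the 1 gene of this group whose levels in fetuses 274, 320 and 340, 7.94, 7.91 and 7.90, all lay above those of the other livers, 7.08 to 7.81. SLC16A10 rose by 0.29 ± 0.0477 (adjusted p = 0.000147; r = 0.846, permutation p = 1.0e-05, rho = 0.773). Its levels in the 3 livers were 7.66, 7.18 and 7.21 and overlapped with the 6.38 to 7.43 of the others. SLC6A9, the glycine transporter, rose by 0.19 ± 0.0523 (adjusted p = 0.018), but within the 21 livers r was 0.261 (permutation p = 0.249) and rho 0.375, so its slope rests on the 3 livers with the highest scores, at 8.43, 8.57 and 8.30.

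SLC25A21, the mitochondrial carrier of oxoadipate, rose by 0.18 ± 0.0347 (adjusted p = 0.000787), with an r of 0.785 and a rho of 0.725 within the 21 livers. The zinc exporter SLC30A1 rose by 0.30 ± 0.0674 (adjusted p = 0.00393), with an r of 0.724. The urea transporter SLC14A1 rose by 0.30 ± 0.0777 (adjusted p = 0.0102), with an r of 0.691, and the carnitine transporter SLC22A16 by 0.25 ± 0.064 (adjusted p = 0.0101), with an r of 0.640. The mitochondrial zinc exporter SLC30A9 rose by 0.16 ± 0.0474 (adjusted p = 0.0267), with an r of 0.561 that was 0.328 without the 2 livers farthest out. Levels of SLC25A21, SLC14A1 and SLC30A9 reached 6.89 at most and overlap with those of the brighter background controls. SLC6A9 and SLC30A9 are described here because of their values.

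**Figure D3:**
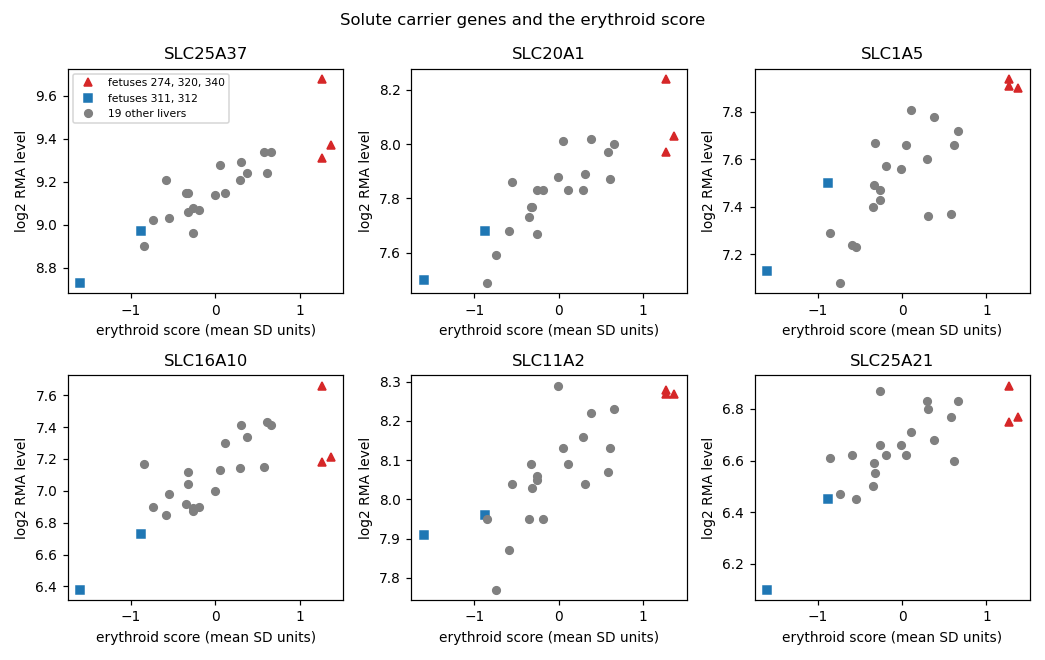
Log2 RMA level (y axis, own scale per panel) against the erythroid score (x axis, mean SD units over 23 marker genes) for 6 solute carriers, with a point for each of the 24 livers. Red triangles are fetuses 274, 320 and 340, blue squares fetuses 311 and 312, and grey circles the other livers. In SLC1A5 the 3 triangles lie above all other points, in the other panels they overlap with them.

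The 3 genes that fell with the erythroid score were SLC37A4, SLC7A7 and SLC17A2. SLC37A4, the glucose 6-phosphate transporter, fell by 0.16 ± 0.0442 per unit (adjusted p = 0.0195), with levels of 7.82, 7.71 and 7.71 in fetuses 274, 320 and 340 and 7.72 to 8.28 in the others. SLC7A7 fell by 0.15 ± 0.0465 (adjusted p = 0.034) and SLC17A2 by 0.48 ± 0.156 (adjusted p = 0.043). Within the 21 livers the correlations were -0.379, -0.263 and -0.314 with permutation p of 0.0909, 0.249 and 0.166, so none of the 3 passed there. None of the 3 passed when the array medians were aligned either, with adjusted p by limma of 0.0618, 0.0738 and 0.11. All 11 solute carriers that passed in that setting were among the 14. The share of all genes that passed in that setting was not counted.

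Within the 21 livers 12 solute carriers passed the test, 9 of them among the 14, against 9.24% of all genes tested in the same fit, and SLC6A9, SLC30A9, SLC37A4, SLC7A7 and SLC17A2 did not, with adjusted p of 0.466, 0.0615, 0.287, 0.526 and 0.349. Without fetuses 311 and 312, which had the lowest erythroid scores and the highest granulocyte scores, 10 solute carriers passed, 9 of them among the 14, against 6.62% of all genes tested. SLC30A1, SLC22A16, SLC14A1, SLC30A9 and SLC17A2 did not pass there, with adjusted p of 0.0872, 0.141, 0.142, 0.133 and 0.066. SLC25A37 kept a slope of 0.20 and an adjusted p of 0.000893 without these livers. The part of the granulocyte markers in the slopes on the erythroid score was not tested beyond this.

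The hepatocyte score went with 5 solute carriers that rose (7.25%) and 1 that fell, against 2.48% and 0.209% of the 3353 genes tested, or 6 of 69 (8.7%) against 2.68% in either direction. The median correlation with this score was 0.170 for the solute carriers and 0.071 for all genes tested. The neutral amino acid exchanger SLC1A4 rose by 0.50 ± 0.105 log2 units per unit of the score (adjusted p = 0.00777). It lay at 6.83, 7.44, 6.63 and 6.89 in fetuses 311, 312, 274 and 320, which had the lowest scores, and between 6.93 and 7.99 in the other 20 livers. SLC25A4, an ADP/ATP carrier, rose by 0.28 ± 0.0651 (adjusted p = 0.0161) and the copper importer SLC31A1 by 0.22 ± 0.0508 (adjusted p = 0.0196). SLC26A6 rose by 0.53 ± 0.125 (adjusted p = 0.0198), with its lowest level, 5.37, in fetus 274. The peroxisomal carrier SLC25A17 rose by 0.22 ± 0.0605 (adjusted p = 0.0434). Its levels reached 6.81 at most and overlap with those of the brighter background controls.

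SLC25A30, another carrier of the mitochondrial family, fell by 0.32 ± 0.0842 per unit of the hepatocyte score (adjusted p = 0.0372). It lay at 7.03, 6.95, 7.19 and 7.10 in fetuses 311, 312, 274 and 320, above all of the other 20 livers, which lay between 6.26 and 6.83. Within those 20 livers its r with the score was -0.041 (permutation p = 0.862, rho = -0.197). For the 5 that rose, r within the 20 livers was 0.652 for SLC1A4, 0.506 for SLC25A4, 0.589 for SLC31A1, 0.404 for SLC26A6 and 0.626 for SLC25A17, with permutation p of 0.00211, 0.0225, 0.00689, 0.0773 and 0.00329. In the fit across all genes, restricted to the 20 livers, 0 of the 69 passed, against 0.119% of all genes tested, with adjusted p by limma of 0.115 to 0.809 for these 6. Without fetuses 311 and 312, 7 solute carriers passed for the hepatocyte score, against 2.95% of all genes tested. They included 5 of the 6, and SLC25A30 did not pass, with a slope of -0.27 (adjusted p = 0.116). With aligned array medians its slope was -0.22 (adjusted p = 0.109). The stellate markers moved with these genes too, with an r over the 24 livers of 0.619 for SLC1A4, 0.557 for SLC25A4, 0.470 for SLC31A1, 0.467 for SLC26A6, 0.463 for SLC25A17 and -0.423 for SLC25A30, and their part in the slopes was not tested.

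SLC10A1, SLC2A2 and SLC38A4, known as hepatocyte transporters, did not pass for the hepatocyte score. Their slopes were 0.34 ± 0.201, 0.19 ± 0.0929 and 0.05 ± 0.0946 log2 units per unit of the score (adjusted p = 0.446, 0.295 and 0.895 by limma). For SLC10A1, whose levels spanned 3.35-fold, the slopes on the erythroid and granulocyte scores were -0.01 and -0.04.

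The granulocyte score went with 3 solute carriers that rose and 5 that fell, 8 of 69 (11.6%), against 4.53% and 3.44% of the 3375 genes tested and 7.97% in either direction. These results rest on fetuses 311 and 312. SLC2A3, the glucose transporter, rose by 0.39 ± 0.0454 log2 units per unit of the score (adjusted p = 5.6e-07), with a pooled r of 0.866 (permutation p = 0.00052) and a rho of 0.423, and r was 0.226 without these 2 livers. SLC7A2 and SLC16A5 rose by 0.29 ± 0.0786 and 0.21 ± 0.0645 (adjusted p = 0.0189 and 0.0453). SLC7A2 lay at 8.29 and 7.72 in fetuses 311 and 312, and between 6.10 and 7.82 in the other 22.

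SLC14A1 fell by 0.27 ± 0.0507 per unit of the granulocyte score (adjusted p = 0.000758), with 5.22 and 5.64 in fetuses 311 and 312 and 5.71 to 6.89 in the other livers. SLC30A1 fell by 0.23 ± 0.0495 (adjusted p = 0.00395), with 6.83 and 6.90 in those 2 and 7.29 to 8.25 in the others. SLC22A16, SLC25A21 and SLC16A10 fell by 0.20, 0.12 and 0.17 (adjusted p = 0.00745, 0.0122 and 0.0191). These 5 genes are among the 11 that rose with the erythroid score. Without fetuses 311 and 312 none of the 8 passed, against 0.178% of all genes tested, and r was -0.251 for SLC14A1, -0.163 for SLC30A1, -0.476 for SLC22A16, -0.232 for SLC25A21, -0.144 for SLC16A10, 0.391 for SLC7A2 and -0.013 for SLC16A5.

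**Figure D4:**
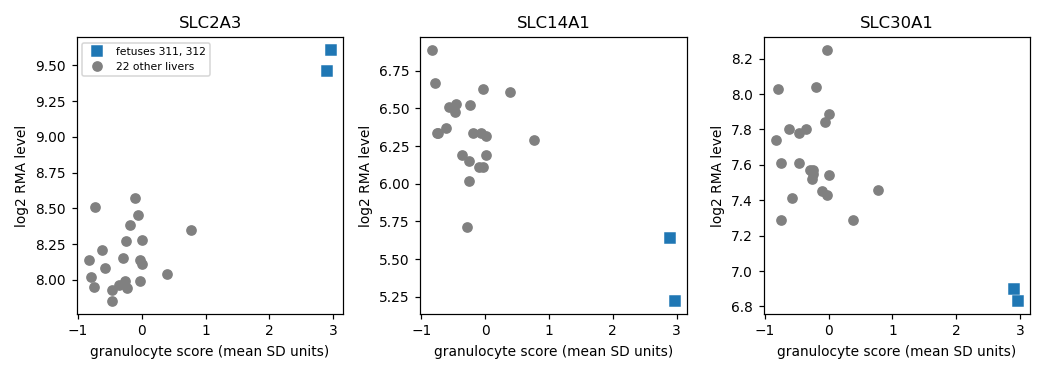
Log2 RMA level (y axis, own scale per panel) against the granulocyte score (x axis, mean SD units over 4 marker genes) for SLC2A3, SLC14A1 and SLC30A1. Blue squares are fetuses 311 and 312, which lie at scores of 2.97 and 2.90 with SLC2A3 at 9.61 and 9.46, and grey circles the other 22 livers.

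With the stellate score 0 of the 69 solute carriers passed by limma, against 0.089% of all 3370 genes tested, and 14 of the 69 had an unadjusted p under 0.05, against 258 of the 3370 (7.66%). The nearest was SLC1A4, with a slope of 0.26 ± 0.0666 (adjusted p = 0.111).

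In total 23 of the 69 solute carriers passed for at least 1 of the 4 scores and 46 for none, against 654 of the 3317 expressed genes that belong to no score (19.7%) that passed for at least 1. Among the 46 were SLC29A1, SLC16A12, SLC25A3 and SLC10A1. By class, the erythroid score counted 3 of the 11 amino acid transporters, 3 of the 13 metal transporters, 2 of the 15 mitochondrial carriers, 2 of the 5 organic ion transporters and 1 gene in each of the sugar, monocarboxylate, inorganic ion and other classes. The hepatocyte score counted 3 genes of the mitochondrial carrier family, of which SLC25A17 is peroxisomal and SLC25A30 fell, and 1 amino acid, 1 inorganic ion and 1 metal transporter. The granulocyte score counted 2 genes of the monocarboxylate class and 1 each of the amino acid, organic ion, metal, mitochondrial, sugar and other classes. These counts are a description with no test. The heat map of the 23 genes shows both blocks.

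**Figure D5:**
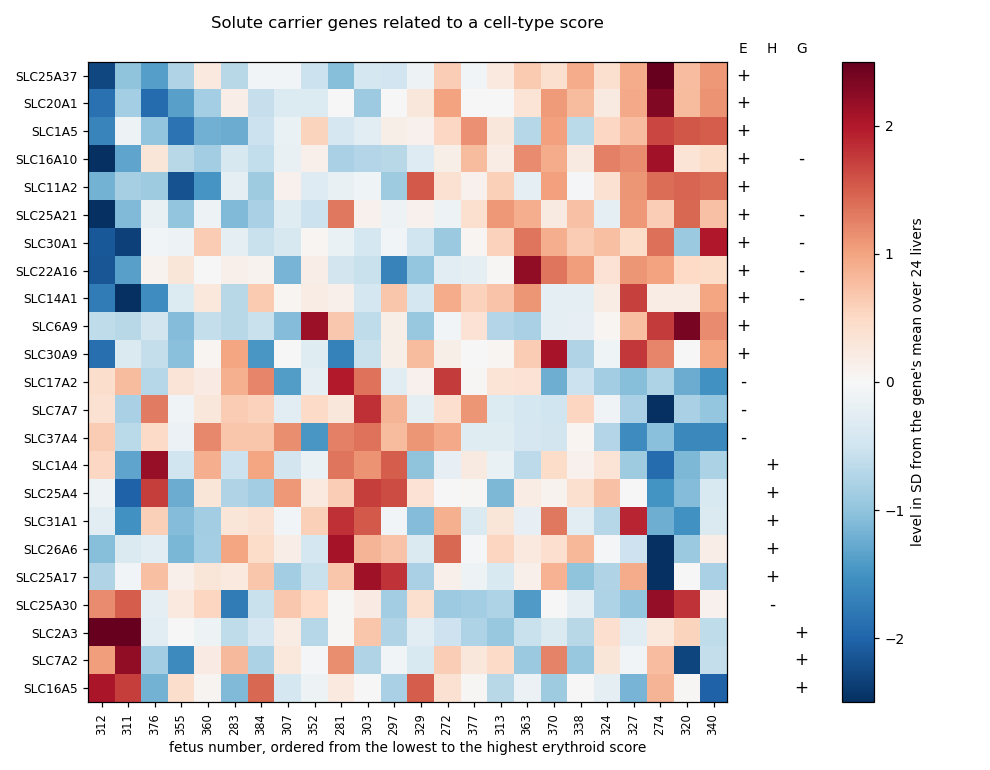
Level in SD from the gene's mean (colour, blue low and red high, values beyond the ends of the scale share the end colours) of the 23 solute carrier genes that passed for a score (rows) in the 24 livers (columns, ordered from the lowest to the highest erythroid score). Signs at the right give the direction of the slope on the erythroid (E), hepatocyte (H) and granulocyte (G) score. The 11 genes that rose with the erythroid score are mostly blue at the left and red at the right.

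A further comparison set solute carriers beside genes with which they are known to work. Of 21 listed pairs 10 had both genes expressed, 7 had a gene below the limit and 4 a gene with no symbol on the array. P-values come from two-sided permutation tests and are adjusted over the 10 pairs. SLC25A37 rose and fell with ALAS2, which starts heme synthesis in red cells, at an r of 0.889 (permutation p = 1.0e-05, adjusted p = 1.0e-04) and a rho of 0.916, and r was 0.831 without the 2 livers farthest out. With FECH, which places iron into heme, r was 0.702 (permutation p = 0.00011, adjusted p = 0.00055) and rho 0.597, and without 2 livers r was 0.445 (adjusted p = 0.186). ALAS2 and FECH belong to the erythroid score, so these values and the slope of SLC25A37 are not separate evidence.

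The other 8 pairs did not pass. SLC2A2 and G6PC, the catalytic subunit of glucose 6-phosphatase, had an r of -0.449 (permutation p = 0.0272, adjusted p = 0.0908) and a rho of -0.493. SLC37A4, its transporter partner in the endoplasmic reticulum, had an r of 0.311 with G6PC (permutation adjusted p = 0.174). SLC10A1 and the bile salt exporter gene ABCB11 had an r of 0.367 and a rho of 0.417 (adjusted p = 0.174 and 0.107, permutation tests). The pair of ADP/ATP carriers SLC25A5 and SLC25A6 had an r of 0.351, SLC25A3 and the ATP synthase gene ATP5B 0.322, SLC16A1 and its chaperone gene BSG 0.286, and SLC35A1 and the sialyltransferase gene ST6GAL1 -0.340. SLC25A11 and MDH1, both of the malate shuttle, had an r of 0.092.

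Among the 2346 pairs of solute carriers the median correlation over the livers was 0.059, against 0.044 for all pairs of expressed genes. An r of 0.5 or more was found for 6.27% of the pairs, against 5.23% of all gene pairs, and of -0.5 or less for 1.96%, against 2.47%. The most positive were SLC20A1 with SLC25A37 at 0.870, SLC11A2 with SLC1A5 at 0.822 and SLC16A10 with SLC25A37 at 0.802. All of these 5 genes rose with the erythroid score. The most negative was SLC14A1 with SLC2A3 at -0.735. In fetuses 311 and 312 SLC2A3 was highest, at 9.61 and 9.46, and SLC14A1 lowest, at 5.22 and 5.64. The r of this pair without these livers was not computed. Of the pairs without a gene that rose with the erythroid score, SLC1A4 and SLC7A7 had an r of 0.766 and SLC16A13 and SLC6A8 of 0.761. These pairs were picked as extremes, are given as values with no test, and share the arrays.

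Transport genes outside the naming rule were read from a separate list of 26, of which 21 had a symbol and 12 were expressed. VDAC3, a channel of the outer mitochondrial membrane, rose with the erythroid score by 0.14 ± 0.0405 (adjusted p = 0.0233). SLCO1B3, an organic anion importer of hepatocytes, had levels of 7.93 to 9.71 and rose with the hepatocyte score by 0.59 ± 0.151 (adjusted p = 0.0312). ABCC2, which exports conjugates into bile, fell with the granulocyte score by 0.15 ± 0.0401 (adjusted p = 0.0152). The other 9, among them BSG with a median of 9.58 and the glycerol channel gene AQP9 with 10.33, passed for none of the scores.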

How the data were processed

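The authors made the deposited log2 values with RMA in the Expression Console software, which corrects background, normalizes the arrays by quantiles and summarizes each probe set. They used GCOS 1.1.1 for quality control. The table holds 47845 probe sets, of which 26426 carry a gene symbol, for 13755 genes. Probe sequences and the array's genome build were not used here, so no sequence or position is printed. Arrays have no read depth, and their number limits the precision.

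The probe set with the highest mean represented each gene. All 69 symbols or a synonym were found in RefSeq. Levels were regressed on each cell-type score with limma 3.58.1 in R 4.3.3. Benjamini-Hochberg adjustment covered all expressed genes, the score's own markers included. These markers were left out of the counts afterwards. Correlations used 100000 permutations in numpy 2.4.6, under Python 3.11.15. Livers were called separate clusters by the largest gap between sorted scores. The regression was tested on simulated data.

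The genes, marker lists, pairs and transport classes were chosen with earlier results of these data known. Genes named were, by rule, those with the highest median or widest span overall or in a class, those with the largest moderated t among the called slopes, members of the pairs, and chosen liver transporters. Genes named beyond this rule, such as SLC6A9 and SLC30A9, were chosen after their values were seen. Alternatives were other limits, probe set choices, aligned arrays, ranked scores, a background covariate and leaving out 2 arrays.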

Additional observations from a re-analysis of the deposited data

How the results depend on the processing

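The number of expressed solute carriers was 108 at a limit of 5, 34 at 7, 44 when each array's 95th background percentile was the limit and 30 with the mean of all probe sets of a gene, against 69. It was 58 when all 24 arrays had to pass. The median span of 0.80 log2 units was 0.44 between the 10th and 90th percentile of the livers. For the erythroid score, with 14 of 69, the mean of all probe sets gave 4 of 30. A limit of 7 gave 8 of 34 and a limit of 5 gave 14 of 108. The other alternatives gave 10 to 14 of 69. For the hepatocyte score, with 6, the mean of all probe sets gave 1, the ranked score 1, a limit of 7 gave 2 and the 20 livers of the larger cluster gave 0. For the granulocyte score, with 8, the mean of all probe sets gave 1, the 22 livers without fetuses 311 and 312 gave 0, the ranked score 0, a limit of 5 gave 13 of 108 and a limit of 7 gave 2. The share of all genes that passed was counted only for the main fit, within clusters and without fetuses 311 and 312. Fewer genes were tested under a limit of 7 and with the mean of all probe sets. The cause was not tested for any of the changed counts. The stellate count was 0 throughout. With aligned arrays 23 of the 28 single slopes passed, and SLC37A4, SLC7A7, SLC17A2, SLC25A30 and SLC16A5 did not, with ranked scores 13 passed and 15 did not, and without fetuses 311 and 312 14 passed and 14 did not. The fits within clusters were chosen after seeing the data. Among the pairs, SLC25A37 with FECH had an r of 0.445 without the 2 livers farthest out, SLC2A2 with G6PC had -0.514 (permutation adjusted p = 0.0334) with the mean of all probe sets, and SLC25A11 with MDH1 turned to -0.078 without 2 livers. No paired analysis was possible because the labels give each liver a fetus number only and no groups that share numbers. Levels below 6.89 overlap with the background controls of some arrays, which limits what the lower solute carriers can show.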
